A study of Mus musculus with 24 samples.

Results

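Transcripts of 10 neutrophil granule and calprotectin genes were compared in mouse blood by age and by exposure to x-rays. The genes were S100a8, S100a9, Lcn2, Ltf, Camp, Ngp, Mmp8, Mmp9, Elane and Mpo, and their probes were found by the gene name that the array files carry, which gave 12 of 39429 probes. All 10 genes passed the filters on dim and unvarying probes, among 17470 genes tested. Blood came from 24 male C57BL/6J mice, 6 in each of 4 groups: young mice of 2 months and old mice of 21 months, either unirradiated (0 Gy) or given 4 Gy of total-body x-rays, with blood taken 24 h later by cardiac puncture into an RNA-stabilising solution. Each mouse had its own array with a single dye, and globin transcripts were depleted before labelling. Blood is a mixture of cells, so fewer cells of a type and less RNA per cell cannot be told apart.

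Neutrophils are short-lived phagocytes that leave the bone marrow with their granules already filled. The granule proteins are made in sequence during maturation: azurophil granule proteins in promyelocytes, specific granule proteins in later precursors, and gelatinase granule proteins last, while the calprotectin subunits accumulate in the cytosol. Blood neutrophils therefore carry mostly late transcripts, and azurophil transcripts mark immature cells. Myeloid factors such as C/EBP proteins, PU.1 and GFI1 govern this order in the marrow.

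The bases upstream of 5 of the genes are shown. S100a8, Lcn2 and Mmp8 varied together over the arrays described below, and Elane and Mpo are the azurophil genes. After group means were removed, Pearson r was 0.91 for S100a8 with Mmp8, 0.78 for S100a8 with Lcn2 and 0.78 for Lcn2 with Mmp8. The pairs with Lcn2 fell to 0.61 and 0.60 without the 2 farthest arrays. With S100a8, Lcn2 and Mmp8, r was -0.34, -0.40 and -0.41 for Elane and 0.47, 0.24 and 0.43 for Mpo. Without irradiated old replicates 4 and 6, r with S100a8 was 0.11 for Elane and 0.62 for Mpo. Each sequence holds the 250 bases before the gene start in RefSeq (GRCm38.p6), read 5′ to 3′ along the strand of the gene, and capitals mark matches to the searched motifs. The upstream bases of S100a9, Ltf, Camp, Ngp and Mmp9 are not shown.
S100a8 (chr3:90668821-90669070, + strand): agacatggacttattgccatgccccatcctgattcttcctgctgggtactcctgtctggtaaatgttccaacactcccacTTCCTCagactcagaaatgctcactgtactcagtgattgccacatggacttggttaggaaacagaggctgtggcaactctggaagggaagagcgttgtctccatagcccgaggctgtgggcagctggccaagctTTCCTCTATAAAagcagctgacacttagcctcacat
Lcn2 (chr2:32387740-32387989, - strand): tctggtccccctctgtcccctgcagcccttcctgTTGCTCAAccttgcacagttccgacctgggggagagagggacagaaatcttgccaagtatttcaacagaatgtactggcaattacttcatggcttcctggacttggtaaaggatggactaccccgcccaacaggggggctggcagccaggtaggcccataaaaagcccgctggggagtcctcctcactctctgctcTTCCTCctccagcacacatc
Mmp8 (chr9:7558179-7558428, + strand): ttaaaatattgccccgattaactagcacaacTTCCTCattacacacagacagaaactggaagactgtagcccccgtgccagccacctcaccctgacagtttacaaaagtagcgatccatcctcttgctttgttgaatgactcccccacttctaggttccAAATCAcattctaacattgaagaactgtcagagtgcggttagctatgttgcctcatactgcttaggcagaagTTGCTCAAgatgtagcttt
Elane (chr10:79886062-79886311, + strand): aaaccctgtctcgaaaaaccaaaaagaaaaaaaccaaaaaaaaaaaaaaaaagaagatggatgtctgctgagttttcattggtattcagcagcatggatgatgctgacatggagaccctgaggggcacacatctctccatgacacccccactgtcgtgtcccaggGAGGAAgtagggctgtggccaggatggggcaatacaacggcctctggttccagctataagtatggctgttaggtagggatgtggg
Mpo (chr11:87793534-87793783, + strand): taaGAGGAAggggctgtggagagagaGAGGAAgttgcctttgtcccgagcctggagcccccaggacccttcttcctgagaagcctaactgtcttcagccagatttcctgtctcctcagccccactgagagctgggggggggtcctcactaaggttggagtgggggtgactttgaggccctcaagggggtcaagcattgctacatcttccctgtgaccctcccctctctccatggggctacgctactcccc

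The motifs, searched on both strands in the 250 bases of the 9 members matched among 32851 RefSeq promoters, were TTNNGCAA for C/EBP, GAGGAA for PU.1, AAATCA for GFI1, TATAAA for a TATA box and an NF-kB motif. The C/EBP letters occurred in 5 of 9 members against 9.56% of all promoters. The PU.1 letters were found in 6 of 9 members against 23.3%. The GFI1 letters matched in 2 of 9 members against 12.4%, the TATA letters in 1 of 9 against 12.4%, and the NF-kB motif in 0 of 9 against 1.41%. Of the 5 genes shown, Lcn2 and Mmp8 held the C/EBP letters, starting 216 and 19 bases before the gene start, and S100a8 alone held the TATA letters, 30 bases before its start. Elane and Mpo held only the PU.1 letters. These matches describe the sequence and were not tested for binding.

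Levels are log2 of the background-corrected signal minus the log2 median of the array, so that 0 is the signal of the median spot, and levels of different genes were not set against each other because probes differ in brightness. A gene was called where limma's two-sided test gave p under 0.005 and a Benjamini-Hochberg adjusted p under 0.05 over all 17470 genes. Median signal per array lay between 8.66 and 44.8, with the 2 lowest values, 8.66 and 8.84, on irradiated old replicates 4 and 6. The 24 arrays lay on 6 slides, each holding a single age, and the ages were scanned on 2 different days, so that age, slide and scan day cannot be told apart. In each age 1 slide held 2 irradiated and 2 unirradiated mice. The 10 mature neutrophil markers were well above background on every array. Summed signal of 6 hepatocyte markers, in multiples of the array median, was 11322, 22905 and 12712 on irradiated young replicates 2, 4 and 5 and between 6.49 and 16.0 on the other 3 arrays of that group. It was 10608, 11195 and 15659 on irradiated old replicates 2, 3 and 5, between 12.8 and 110 on the other 3, between 2.73 and 1872 in unirradiated young mice and between 1.41 and 6.45 in unirradiated old mice. Results of the 10 genes are therefore also given without these arrays, whereas those of other genes are not.

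**Figure D1:**
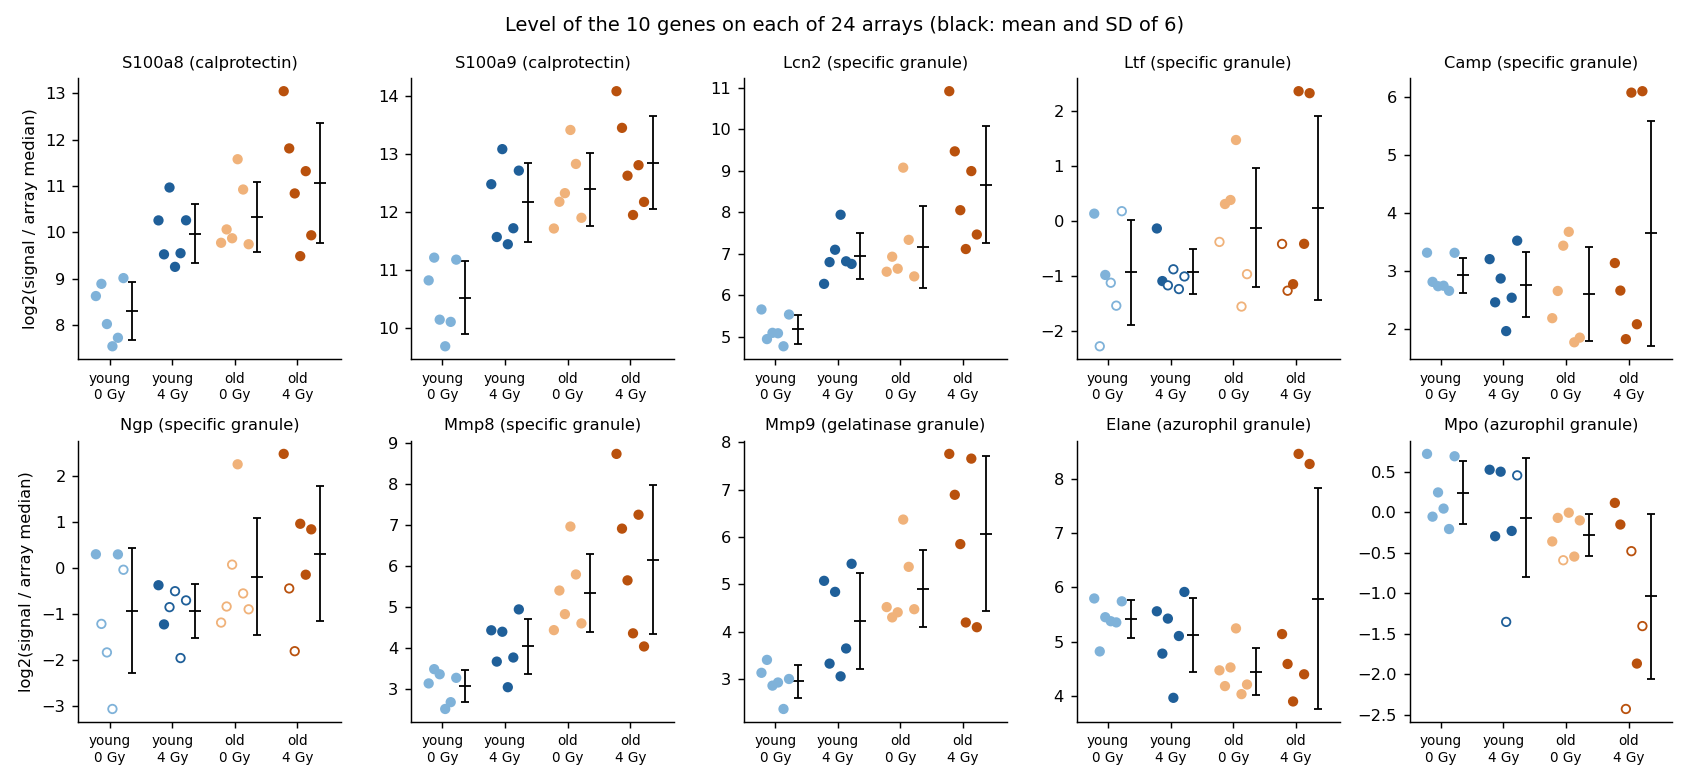
Level of each of the 10 genes (y axis, log2 of signal over the array median) on the 6 arrays of each group (x axis), with open circles where the spot was not well above background and black bars for the mean and SD of 6. S100a8, S100a9 and Lcn2 of irradiated young mice sat above all unirradiated young mice, and Elane and Camp stood far apart on 2 irradiated old arrays.

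In young mice, 4 Gy was followed by higher transcripts of both calprotectin subunits and of lipocalin 2, by about 3-fold each, whereas the azurophil genes did not pass the test. Of the 10 genes, 3 were called, all higher, against 35.8% of all genes tested (14.4% higher and 21.4% lower), and the same 3 genes had groups that did not overlap, against 25.0% of all genes (9.57% higher and 15.4% lower). The median change of the 10 genes was 0.49, beside -0.20 over all genes.

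S100a8 and S100a9 encode the subunits of calprotectin, a calcium- and zinc-binding complex abundant in the neutrophil cytosol and released as an alarm signal. Their probes lie at chr3:90473778-90473837 on the + strand and chr3:90496573-90496632 on the - strand (mm9, as in the array files). S100a8 ranged from 7.54 to 9.01 with a median of 8.33 in unirradiated young mice, and from 9.26 to 10.97 with a median of 9.91 in irradiated young mice. All irradiated young mice were above all unirradiated young mice. The change was 1.67 (SE 0.34, limma adjusted p = 0.00140), a 3.17-fold rise. S100a9 had the same separation, from 9.68 to 11.21 before and from 11.44 to 13.08 after exposure, and rose by 1.64 (SE 0.35, limma adjusted p = 0.00195).

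Lcn2, an iron-scavenging specific granule protein (probe at chr2:32240199-32240258, - strand, mm9), ranged from 4.77 to 5.66 with a median of 5.09 in unirradiated young mice and from 6.27 to 7.94 with a median of 6.81 in irradiated young mice. The groups again did not overlap, and the rise was 1.77 (SE 0.26, limma adjusted p = 0.00015), or 3.40-fold. Mmp8, the neutrophil collagenase (chr9:7568238-7568297, + strand, mm9), had a median of 3.20 before and 4.08 after exposure, and its groups overlapped. Its change of 0.97 (SE 0.30, limma adjusted p = 0.0170) missed the threshold on p. Mmp9, the gelatinase of the last granule class to form (chr2:164780620-164780679, + strand, mm9), behaved likewise, with medians of 2.96 and 4.24 and a change of 1.28 (SE 0.39, limma adjusted p = 0.0170). Without irradiated young replicate 4, Mmp8 and Mmp9 were called at 1.17 and 1.52, and without replicate 2 Mmp9 was called at 1.46.

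The other specific granule genes of young mice showed no such separation. Camp, the precursor of the antimicrobial peptide cathelicidin (chr9:109749911-109749970, - strand, mm9), had medians of 2.77 and 2.70 and a change of -0.17 (95% interval -0.71 to 0.37). Ltf, the iron-binding protein lactoferrin (chr9:110942873-110942932, + strand, mm9), had a median of -1.05 in both groups and was well above background on 2 of 6 arrays in each. Ngp, a cystatin-like granule protein (chr9:110324266-110324814, + strand, mm9), had medians of -0.63 and -0.79 and was likewise well above background on 2 of 6 arrays in each group. Dim signal therefore limits what can be said of Ltf and Ngp.

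Elane, the serine protease neutrophil elastase of azurophil granules (chr10:79350902-79350961, + strand, mm9), ranged from 4.82 to 5.80 in unirradiated and from 3.97 to 5.92 in irradiated young mice. Its change was -0.30 (95% interval -0.93 to 0.34). Mpo, the peroxidase that makes hypochlorous acid (chr11:87617840-87617899, + strand, mm9), had medians of 0.14 and 0.11 and a change of -0.31 (95% interval -0.98 to 0.37). Both intervals include changes of either sign. Mpo was well above background on 6 unirradiated and 4 irradiated arrays, and a different Mpo probe was well above background on 0 of 24 arrays.

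Calls in young mice changed with the slide in the model. With the slide as a fixed block, S100a8 differed by 1.52, S100a9 by 1.38 and Lcn2 by 1.38, with limma adjusted p-values of 0.134, 0.183 and 0.0614, so 0 of 10 genes were called, and 2 of them had an unadjusted p under 0.05. Of all genes, 10.4% were called in this fit. Within the shared slide, with 2 arrays against 2, the differences had the same sizes and limma adjusted p-values of 0.165, 0.186 and 0.137. Without irradiated young replicates 2, 4 and 5, the arrays of high hepatocyte signal, S100a8 rose by 2.19, S100a9 by 2.24, Lcn2 by 1.53, Mmp8 by 1.52 and Mmp9 by 2.17, and all 5 genes were called, beside 33.3% of all genes. On the 3 arrays that were kept S100a8 stood at 10.26, 10.97 and 10.26, and on the 3 left out at 9.53, 9.26 and 9.55. Summed macrophage markers were also higher in irradiated young mice, from 649 to 2444 against 47.3 to 353, and all 6 of these markers were called. Their part in the changes was not tested. Summed mature neutrophil markers overlapped between the young groups, at 775 to 1550 after and 908 to 1361 before exposure, while summed B cell markers were 199 to 578 after and 1531 to 1908 before. Taken singly, 6 of the 10 neutrophil markers were called higher and 4 were not called. Their median change was 1.01, beside -0.20 over all genes.

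**Figure D2:**
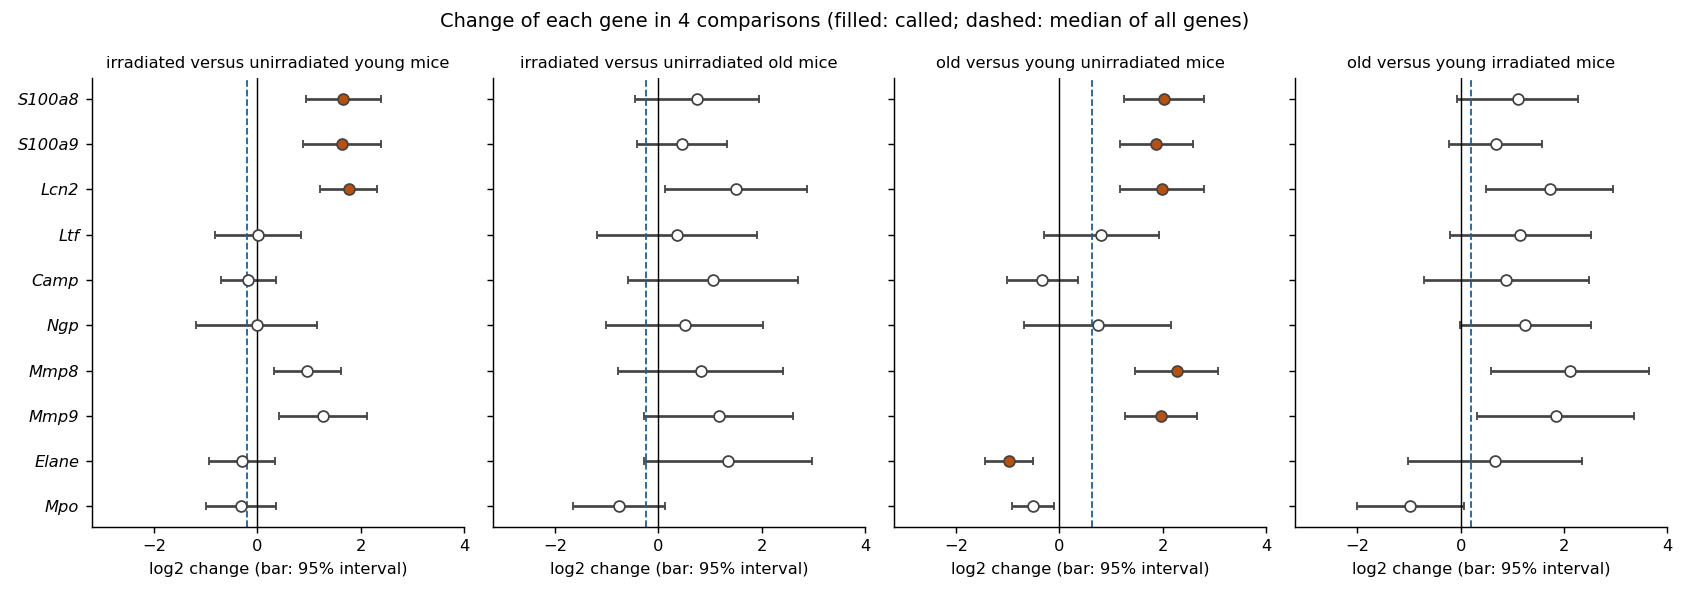
Log2 change of each gene (x axis) in 4 comparisons of 6 against 6 arrays, with 95% intervals as bars, filled circles for called genes and the median of all genes as a dashed line. Called genes numbered 3 in young mice, 0 in old mice, 6 between the unirradiated ages and 0 between the irradiated ages.

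In old mice, 0 of the 10 genes were called after exposure by limma, against 25.0% of all genes tested (7.60% higher and 17.4% lower), and 0 had groups that did not overlap, against 22.7% of all genes (5.92% higher and 16.7% lower). At an unadjusted p under 0.05 there was 1 gene, Lcn2. The median change of the 10 genes was 0.78, beside -0.25 over all genes. Spread between the irradiated old arrays was wide: the SD of Elane was 2.03 there and 0.43 in unirradiated old mice.

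S100a8 ranged from 9.75 to 11.58 with a median of 9.97 in unirradiated old mice and from 9.49 to 13.05 with a median of 11.08 in irradiated old mice. The difference was 0.75 (95% interval -0.45 to 1.95), and that of S100a9 was 0.45 (95% interval -0.41 to 1.32). Lcn2 ranged from 6.45 to 9.08 before and from 7.11 to 10.92 after exposure, with a difference of 1.5 (SE 0.63, limma adjusted p = 0.0818). Mmp8 differed by 0.82 and Mmp9 by 1.17, with medians of 6.28 and 6.37 after exposure against 5.12 and 4.5 before. All of these groups overlapped.

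The irradiated old arrays fell into contrasting patterns by gene. Elane stood at 8.46 and 8.27 on replicates 4 and 6, the arrays of lowest median signal, and between 3.90 and 5.14 on the other 4. Camp stood at 6.07 and 6.09 on the same 2 arrays and Ltf at 2.36 and 2.32, whereas S100a8, Mmp8 and Mmp9 had their 2 lowest values of the group there. Without replicates 4 and 6, Lcn2 rose by 2.19 (limma adjusted p = 0.0109) and Mmp9 by 2.13 (limma adjusted p = 0.00389), S100a8 differed by 1.43, Elane by 0.06 and Camp by -0.17. Without replicates 2, 3 and 5, which had high hepatocyte signal, Elane rose by 2.84 (limma adjusted p = 0.00418) and Camp by 2.51 (limma adjusted p = 0.00976), while S100a8 differed by 0.50. The 2 genes called thus changed with the arrays left out. The part of signal strength in this was not tested. With the slide as a fixed block, S100a8 differed by 2.09, Lcn2 by 3.30, Mmp8 by 2.63, Mmp9 by 2.40 and Elane by 0.74. In this fit limma called 0 members, beside 2.87% of all genes, and 5 members had an unadjusted p under 0.05. Within the shared slide, which held irradiated replicates 1 and 2, limma called Lcn2 (adjusted p = 0.0332) and Mmp9 (adjusted p = 0.0365).

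Across the 24 arrays, after the group means were removed, S100a8 and S100a9 varied together (Pearson r = 0.96, Spearman rho = 0.96, permutation p = 1e-05 for each, adjusted p = 9e-05 and 0.00015, r = 0.94 without the 2 arrays farthest from the S100a8 median). Mmp8 and Mmp9 did so too (r = 0.93, rho = 0.88, permutation p = 1e-05 and 2e-05, adjusted p = 9e-05 and 0.000193, r = 0.92 without the 2 farthest arrays). Camp varied with Elane, a gene of the other granule class (r = 0.96, rho = 0.91, permutation p = 1e-05 and 3e-05, adjusted p = 9e-05 and 0.000193, and r = 0.91 without the 2 farthest arrays, which were irradiated old replicates 4 and 6). Elane and Mpo, both azurophil, had r = 0.38 and rho = 0.40 (permutation p = 0.281 and 0.147, adjusted p = 0.392 and 0.300, r = 0.55 without the 2 farthest arrays). There were 45 pairs of members, arrays were permuted 100000 times within groups, 1e-05 is the smallest p that this can give, and adjustment ran over the 45 pairs.

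Out of 10243 genes whose signal cleared background on each of 24 arrays, those with the residual pattern most like S100a8 included Gm5483 (r = 0.97), Ifitm1 (r = 0.97), Stfa1 (r = 0.96) and Cxcr2, the chemokine receptor of mature neutrophils (r = 0.96). Among the 5 most like Ltf were Olfr1211 at r = 0.88 and Golgb1 and Slc25a44 at r = 0.87 each, and among the 5 most like Mpo were Hist4h4 at r = 0.83 and Ghrl at r = 0.82. A ranking for Elane, which was not planned, held 1700003F12Rik at r = 0.99 and Fam83f and Cbarp at r = 0.98 each. Camp was not among the 5 genes most like Elane. These values rank genes over 24 arrays and carry no test.

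Before irradiation, 5 of the 10 genes were higher and 1 was lower in old than in young mice. The 5 were S100a8, S100a9, Lcn2, Mmp8 and Mmp9, by 3.65-fold to 4.81-fold when scaled to the array median, and the 1 was Elane. These counts were close to the share over all genes tested, of which 63.8% were called (48.2% higher and 15.5% lower). The median change of all genes was 0.62, and 48.6% of genes had groups that did not overlap (37.3% with old mice higher and 11.3% lower). The same 5 higher genes had groups that did not overlap. The direction over all genes followed the scaling: 75.6% of called genes were higher in old mice here, against 27.9% after scaling to the 75th percentile, 23.7% with the median over probes bright on all arrays, 44.7% after quantile normalization, 21.6% with spike-in probes and 17.2% in the deposited table. Under these 5 scalings the 5 genes kept a positive difference and Elane a negative one, and Lcn2 was not called in 1 of them.

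S100a8 rose with age by 2.02 (SE 0.36, limma adjusted p = 0.000234), which is 1.40 above the median of all genes and 4.07-fold. S100a9 had a median of 12.25 in unirradiated old mice against 10.48 in young mice, and rose by 1.87 (limma adjusted p = 0.000229), 1.24 above the median of all genes. Over the scalings, S100a8 differed by 1.32 to 2.02 and S100a9 by 1.31 to 1.87.

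Mmp8 had the largest of the 10 differences, with 2.51 to 3.48 in young and 4.44 to 6.97 in old mice and a rise of 2.27 (SE 0.37, limma adjusted p = 0.000143), or 4.81-fold. Mmp9 rose by 1.96 (SE 0.32, limma adjusted p = 0.000151) and Lcn2 by 1.99 (SE 0.38, limma adjusted p = 0.000412). Every old mouse was above every young mouse for these 3 genes. Relative to the median of all genes the differences were 1.64 for Mmp8, 1.33 for Mmp9 and 1.36 for Lcn2. Ltf (0.81), Ngp (0.74) and Camp (-0.33) were not called. Camp was called lower in the deposited table, at -0.98, where a different Camp probe was used.

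Elane ranged from 4.04 to 5.25 with a median of 4.34 in unirradiated old mice and from 4.82 to 5.80 with a median of 5.41 in unirradiated young mice. The groups overlapped, and Elane fell by 0.98 (SE 0.22, limma adjusted p = 0.00119), a level 1.97-fold lower, which is -1.60 relative to the median of all genes. Over the scalings its difference was -1.77 to -0.98. Mpo differed by -0.52 (limma adjusted p = 0.0230) and was not called, but was called lower after scaling to the 75th percentile (-1.04), with the median over bright probes (-1.08) and with spike-in probes (-0.96). With normexp background correction limma called 0 of the 7 members that could be tested and 0 of 11763 genes, with S100a8 at 1.62 and Elane at -1.09, and 1 member had an unadjusted p under 0.05. Summed mature neutrophil markers were 2093 to 4389 in unirradiated old mice and 908 to 1361 in young mice, and 9 of these 10 markers were called higher. Their part in the differences was not tested.

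After irradiation, 0 of the 10 genes were called between the ages by limma, against 2.00% of all genes tested, with 3 genes at an unadjusted p under 0.05, and 0 had groups that did not overlap, against 5.07% of all genes (4.45% with old mice higher and 0.612% lower). Differences were 2.12 for Mmp8 (95% interval 0.59 to 3.64), 1.84 for Mmp9 (0.32 to 3.36), 1.72 for Lcn2 (0.49 to 2.95), 1.10 for S100a8 (-0.07 to 2.27) and -0.97 for Mpo (-2.01 to 0.07). Without old replicates 4 and 6, S100a8 was called at 1.78, Lcn2 at 2.41, Mmp8 at 3.10 and Mmp9 at 2.81. Without old replicates 2, 3 and 5, Ltf, Camp and Ngp were called instead, at 2.34, 2.34 and 2.37. Of all genes, 28.5% were called without old replicates 4 and 6, and 10.6% without old replicates 2, 3 and 5.

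The difference between the ages in the response was tested on all 24 arrays as an interaction, and 0 of 10 genes were called by limma, as were 0 of 17470 genes, of which 4112 had an unadjusted p under 0.05. At an unadjusted p under 0.05 there was 1 of the 10, S100a9, whose response was 1.19 less in old mice (-1.19, 95% interval -2.32 to -0.06, limma adjusted p = 0.194). The estimate for S100a8 was -0.92 (-2.32 to 0.48) and for Elane 1.65 (-0.11 to 3.40). Without old replicates 2, 3 and 5, Elane (3.14, limma adjusted p = 0.00160) and Camp (2.68, limma adjusted p = 0.00421) were called, and without all 6 irradiated arrays of high hepatocyte signal Elane was (2.63, limma adjusted p = 0.0149). Of all genes, 34.1% were called in the former fit and 20.7% in the latter. The young response and the age comparison of unirradiated mice share the unirradiated young arrays, so their values are given side by side only: 1.67 and 2.02 for S100a8, 1.77 and 1.99 for Lcn2, -0.30 and -0.98 for Elane.

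**Figure D3:**
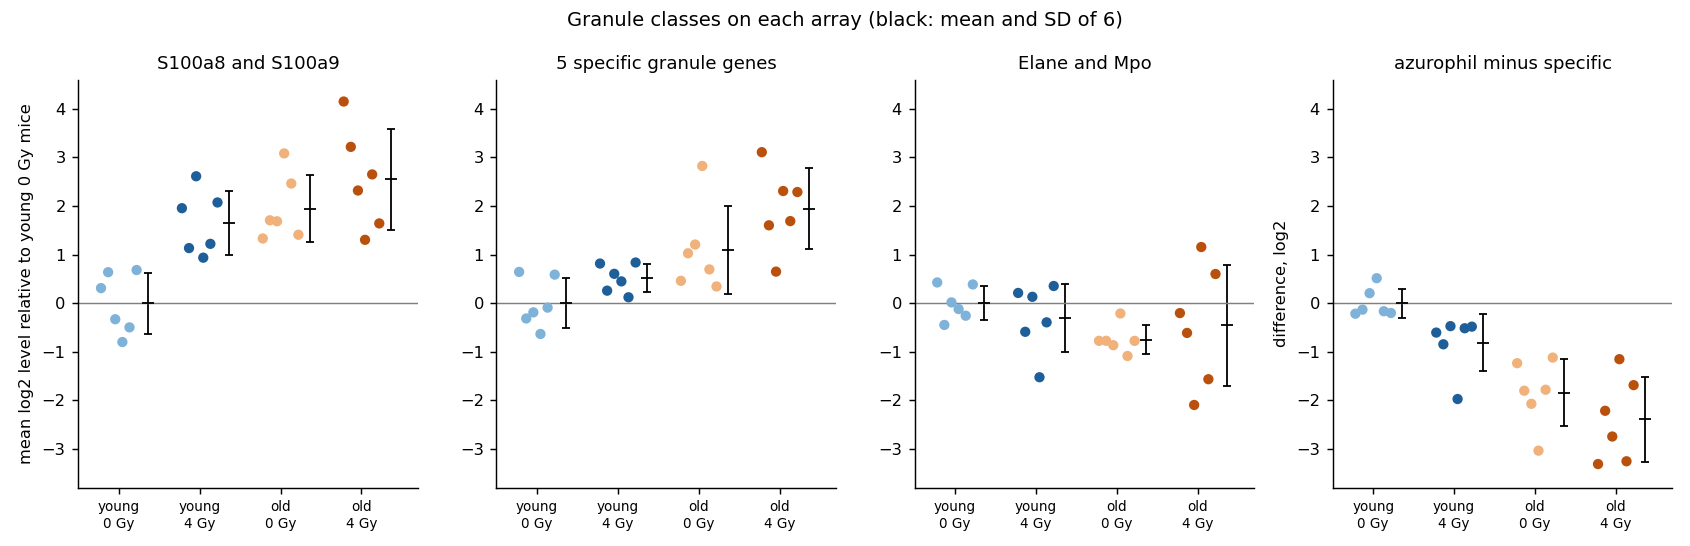
Mean level of each granule class on each array relative to unirradiated young mice (y axis, log2), and the azurophil minus specific difference (last panel), for 6 arrays per group with black bars for mean and SD. The difference averaged -0.82 in irradiated young, -1.84 in unirradiated old and -2.40 in irradiated old mice.

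Azurophil genes were set against specific granule genes within each array, a difference that no scaling factor of an array can move. Each gene was expressed relative to its mean in unirradiated young mice, and the mean of Lcn2, Ltf, Camp, Ngp and Mmp8 was subtracted from the mean of Elane and Mpo. The difference had an SD of 0.30 around 0 in unirradiated young mice and was -0.82 ± 0.58 (SD, n = 6) in irradiated young mice, -1.84 ± 0.69 (SD, n = 6) in unirradiated old mice and -2.40 ± 0.87 (SD, n = 6) in irradiated old mice. The lowest to highest arrays were -0.22 to 0.51, -1.97 to -0.47, -3.04 to -1.12 and -3.31 to -1.15. On this measure unirradiated young mice lay above every array of the 3 other groups, and the 2 old groups overlapped. It includes the dim genes Ltf, Ngp and Mpo. With Elane set against the mean of Lcn2, Mmp8 and Camp alone, the difference was -1.15 ± 0.46 in irradiated young, -2.28 ± 0.53 in unirradiated old and -2.06 ± 2.26 in irradiated old mice (SD, n = 6 each), so irradiated minus unirradiated old mice turned positive. Irradiated old replicates 4 and 6 then stood at 0.91 and 0.71, above every unirradiated young array (highest 0.29), and the other 4 between -4.15 and -2.97. No test was applied, since the genes were chosen with earlier results known.

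Both class means entered the difference, but the genes of a class did not always move alike. The specific genes averaged 0.51 in irradiated young, 1.09 in unirradiated old and 1.94 in irradiated old mice, and the azurophil genes -0.30, -0.75 and -0.45. Calprotectin averaged 1.66, 1.95 and 2.55, and Mmp9 1.28, 1.96 and 3.12. The 0.51 of irradiated young mice held 1.77 for Lcn2 and 0.97 for Mmp8, beside 0.01 for Ltf, -0.17 for Camp and -0.01 for Ngp. Mean Elane was 5.79 in irradiated old and 5.42 in unirradiated young mice, whereas mean Mpo, a dim gene, was -1.04 and 0.24. Among unirradiated old mice, replicate 4 had the highest specific granule mean, 2.82, and the lowest difference, -3.04. Among irradiated old mice, replicates 4 and 6 had the highest azurophil means, 1.16 and 0.60, and without them the irradiated minus unirradiated difference in old mice was -1.04 in place of -0.55. It was -1.31 within the shared slide and -0.21 without replicates 2, 3 and 5.

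Other genes of the same granules were counted from lists chosen in the same way. Of 6 other azurophil and promyelocyte genes, 3 were tested, and Prss57, Bpi and Ms4a3 were too dim. Prtn3, proteinase 3, rose by 2.21 in young mice (SE 0.44, limma adjusted p = 0.00130) and by 1.5 in old mice (SE 0.43, limma adjusted p = 0.0161), although it was well above background on only 2 of 6 unirradiated young arrays. Ctsg, cathepsin G, differed by 0.36 and 1.0 and was not called. Ctsc, which activates the granule serine proteases, fell by 1.73 in irradiated old mice and was higher by 1.15 in unirradiated old than young mice.

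Of 10 other specific granule genes, 9 were tested, and Olfm4 was too dim. In young mice 5 rose: Slpi, a protease inhibitor, by 3.01, Hp, haptoglobin, by 2.85, Lyz2, a lysozyme, by 1.46, Itgam, an integrin chain, by 1.18 and Cyba, an oxidase subunit, by 0.84. Chil3, a chitinase-like protein, fell by 1.97. Cd177 (-1.14), Pglyrp1 (0.69) and Cybb (0.75) were not called. In old mice Slpi rose by 1.80, and 8 genes were not called, among them Chil3 at -2.11. The median change of the 9 genes was 0.84 in young and -0.02 in old mice, beside -0.20 and -0.25 over all genes. Between unirradiated ages 8 of the 9 were higher in old mice and Itgam (0.34) was not called. That count was scaling-dependent, with 4 of 8 called higher after 75th percentile scaling and 3 of 9 in the deposited table. Changes of these other genes, Hp among them, include the arrays of high hepatocyte signal, whose part in them was not tested.

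**Figure D4:**
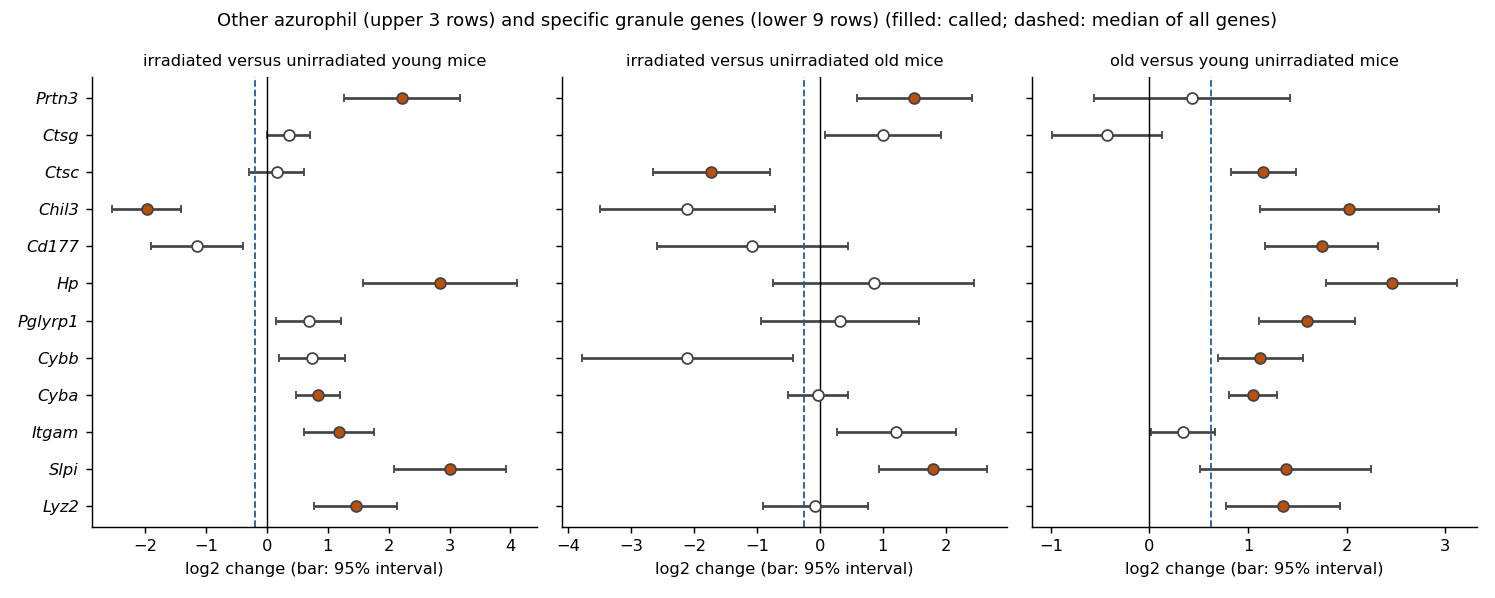
Log2 change (x axis) of 3 other azurophil genes and 9 other specific granule genes (rows) in 3 comparisons of 6 against 6 arrays, with 95% intervals as bars, filled circles for called genes and the median of all genes dashed. Chil3 fell by 1.97 in irradiated young mice while Slpi and Hp rose by 3.01 and 2.85, with the arrays of high hepatocyte signal included.

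Of 6 other genes of gelatinase granules and secretory vesicles, 4 were tested and all 4 rose in young mice, among them Adam8 by 1.78, Slc11a1 by 1.36 and the formyl peptide receptor Fpr1 by 1.56. In old mice 0 of 4 were called after exposure by limma (Adam8 1.03, Slc11a1 -0.22, Fpr1 0.94). Of 4 other myeloid S100 genes, 3 rose in young mice, including S100a6 by 1.08 and S100a10 by 1.38, and S100a4 (0.49) was not called. In old mice S100a10 rose by 1.18 and S100a4 fell by 1.22. Protease inhibitors gave 3 rises of 5 in young mice (Slpi, Stfa2 by 1.94 and Timp2 by 2.44). In old mice Slpi rose and Serpinb1a, an inhibitor of neutrophil elastase, fell by 2.00.

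Receptors for the secreted proteins were called higher in 4 of 4 tests in young mice, including Fpr2 by 1.62, Lrp1 by 1.54 and Slc22a17, a lipocalin 2 receptor, by 1.40. In unirradiated old against young mice 3 of the 4 were higher, Fpr2 by 2.65, Tlr4 by 1.43 and Lrp1 by 0.95, and Slc22a17 was lower (-0.94). Lrp1 was not called there under any of the 5 other scalings, and in the deposited table Fpr2 was the only receptor called higher. Of 8 transcription factors of granulopoiesis, 4 rose in young mice, among them Cebpb by 1.23, Cebpd by 1.31 and Runx1 by 1.22, and Myb, a factor of immature cells, fell by 2.02. In old mice Runx1 rose by 1.27 and Myb fell by 2.50. Cebpb differed there by -0.34 and Cebpd by 0.64 and neither was called. Scaling moved these counts: with spike-in scaling 1 of 4 S100 genes, 1 of 4 receptors and 1 of 8 transcription factors rose in young mice.

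**Figure D5:**
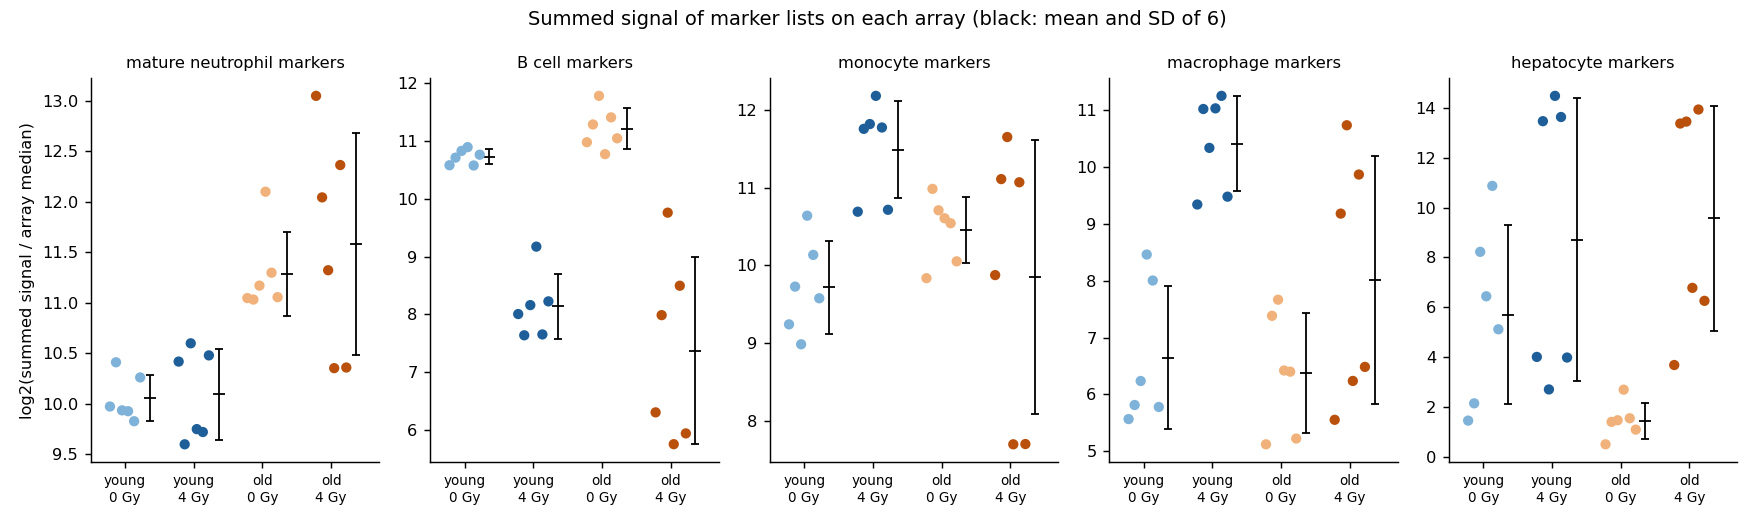
Summed signal of 5 marker lists (y axis, log2 of the sum over the array median) on the 6 arrays of each group, with black bars for mean and SD. Neutrophil markers of every unirradiated old mouse were above those of every unirradiated young mouse, and hepatocyte markers were high on 6 irradiated arrays.

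The mature neutrophil markers, a list that holds no member, were counted in the same comparisons. In young mice 6 of 10 rose, including Cxcr2 by 1.92 and Il1r2 by 1.98, with a median of 1.01 over the list, while Csf3r (-0.17), Mxd1 (-0.21) and Retnlg (0.52) were among those not called. In old mice 0 of 10 were called by limma. Between the unirradiated ages 9 of 10 were higher in old mice, with a median of 1.62, and 5 to 8 were called higher under the 5 other scalings. Beside them, the 6 B cell markers fell in young mice, by 2.68 for Cd79b, and 5 of 6 fell in old mice. Eosinophil and basophil granule genes summed to 58.4 to 166 and 52.7 to 161 in young mice before and after exposure.

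Platelet markers moved beside the members. All 5 were called higher in young mice, with a median change of 1.65 beside 1.66 for the mean of the calprotectin genes, and all 5 in old mice, with a median of 1.88. Their summed signal was 3233 to 5361 before and 8001 to 19076 after exposure in young mice, and 5493 to 10977 and 14361 to 34102 in old mice, with no overlap at either age. Between the unirradiated ages 4 of 5 were higher in old mice (median 0.96), and 0 to 2 were under the 5 other scalings. Erythroid markers fell in 4 of 5 cases in young mice (median -2.45) and had a median of -1.77 in old mice, where limma called none. T cell markers fell in 4 of 5 cases in young mice (median -1.12) and had a median of -0.68 in old mice, where limma again called none. Of 5 monocyte markers, 2 rose and 1 fell in young mice, and 2 fell in old mice. Under normexp background correction limma called 4 platelet markers in young mice, and it called no platelet marker in old mice and no B cell, T cell or erythroid marker at either age. The part of these cells in the changes of the members was not tested.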

How the data were processed

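Blood RNA of 24 mice was hybridized to 24 single-dye Agilent arrays, 1 mouse per array. The deposited intensity values are the background-corrected signals that the authors obtained with Agilent Feature Extraction 12.0.2, not scaled between arrays. A table of log2 values, which the authors filtered and normalized and also deposited, served as an alternative. Signals of uniform spots were log2-transformed and centred on each array by the median over its 43020 non-control spots. Probes flagged or not above background in at least 25% of the arrays were dropped, each gene took the probe of highest mean (18737 genes), and 17470 genes that deviated at least 1.5-fold from their own median on 20% of arrays or more (5 arrays) were kept. The 12 arrays of a comparison were fitted with limma 3.58.1 (two-sided, no block), and the interaction used all 24. Calls needed p under 0.005 and an adjusted p under 0.05. The methods name a random variance test, which was run as an alternative. Median signal per array (8.66 to 44.8) limits dim genes.

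Arrays of a group were compared by the scaled median absolute deviation of their log2 differences, over 177 bright probes spotted more than once. The closest were unirradiated old replicates 1 and 6, at 0.122 against 0.0978 and 0.0796 between repeat spots of 1 array. Next came irradiated young replicates 2 and 5, at 0.133 against 0.110 and 0.0959. They were kept as separate samples, and averaging each pair was tried. Members and lists were chosen with earlier results of these data known. Text names all members, all genes of the 2 lists of other azurophil and specific granule genes, the 3 genes of highest signal from each other list of pathway genes and genes among the 5 most like S100a8, Ltf and Mpo. Genes among the 5 most like Elane are named too, though that ranking was not planned. Stfa2, Tlr4, Myb and the cell type markers that are named were chosen after their values were seen. Some genes of those other lists, and the blood progenitor list, are not reported here. Replicate numbers do not pair mice, and p-values measure the spread between mice. Alternatives were scalings (75th percentile, median over bright probes, quantile, spike-in probes, the deposited table), normexp background correction (offset 50), filters, probe choice, other tests, slide or replicate number as a block and leaving out arrays. The fits were tested on simulated data. Tools were R 4.3.3, data.table (version 1.17.8), statmod 1.5.0, Python 3.11.15, NumPy 2.4.6, pandas 2.3.3 and Matplotlib 3.10.9.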

Additional observations from a re-analysis of the deposited data

Results flagged for a closer look

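Values of 1 array stood far from the other 5 of its group in 4 of 44 groups examined, where chance gives about 1 in 20. Lcn2 on unirradiated old replicate 4 was 9.08, against 7.33 on the next array. Ngp on the same array was 2.25, against 0.07 on the next. Ltf on irradiated young replicate 1 was -0.13, against -0.87 on the next. The azurophil minus specific difference of irradiated young replicate 4 was -1.97, against -0.85 on the next lowest array, and this array also had the highest hepatocyte signal of its group.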

How the results depend on the processing

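Counts of called members were 3 in young mice, 0 in old mice, 6 between the unirradiated ages, 0 between the irradiated ages and 0 for the interaction. In young mice the count was 5 with the median over bright probes, with trended and robust variance, with the slide as a random block and without replicates 2, 4 and 5 of high hepatocyte signal, 1 with normexp and 0 with the slide fixed or alone. In that order, 37.9%, 36.3%, 50.3%, 33.3%, 7.13%, 10.4% and 0.664% of all genes were called. In old mice the count was 2 within the shared slide, 2 without replicates 2, 3 and 5 and 2 without replicates 4 and 6, beside 12.1%, 40.5% and 34.7% of all genes. Between the unirradiated ages the count was 0 with normexp. Between the irradiated ages it was 3 in 1 fit of 24 arrays, 3 without old replicates 2, 3 and 5 and 4 without old replicates 4 and 6, beside 14.4%, 10.6% and 28.5% of all genes. The interaction count was 2 without old replicates 2, 3 and 5 and 1 without the 6 arrays of high hepatocyte signal, beside 34.1% and 20.7% of all genes. Leaving out 1 array gave 3 to 5 in young mice and did not move the other counts (0, 6, 0 and 0). Of all genes, those fits called 30.9% to 37.4% in young mice, 18.2% to 26.1% in old mice and 58.3% to 65.4% between the unirradiated ages. They called 0.189% to 2.88% between the irradiated ages and 0% to 5.92% for the interaction. Some of these fits held fewer arrays or genes, and the causes of the moved counts were not tested. Leaving out groups of arrays, other than old replicates 2, 3 and 5, and averaging the closest arrays were chosen after seeing the data. Averaging gave 4, 0, 6, 0 and 0, beside 31.8%, 18.5%, 59.3%, 0.544% and 0% of all genes.

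With the replicate number as a block the counts were 4, 0, 6, 0 and 0, beside 28.8%, 19.5%, 58.2%, 0.0114% and 0% of all genes. Correlations of same-numbered arrays ran from -0.60 to 0.58, with 1 to 4 of 6 over 0.1 in a comparison, so the numbers do not pair mice.

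The azurophil minus specific difference stayed within 1 SD of its value in all 14 values under other settings and in 36 that left out 1 array (-0.89 to -0.59 in young, -0.80 to -0.37 in old, -1.99 to -1.60 between unirradiated ages). Under normexp Ltf, Ngp and Mpo dropped out, so its values among the 14 set Elane alone against Lcn2, Camp and Mmp8. In old mice normexp gave 0.20. Of single-gene changes over the settings other than leaving out 1 array, 822 kept their sign and their side of the threshold, 34 passed it newly, 16 no longer passed it and 43 that were not called changed sign. Leaving out 1 array, 691 kept both, 3 passed the threshold newly and 26 that were not called changed sign. Among called genes, 40.3% were higher in young mice (94.2% with normexp), 30.4% in old mice (38.4% to 54.2% under the 6 other scalings), and 70.0% between irradiated ages (2.4% to 43.9%).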

Other observations

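Mpo was measured by 2 probes, and the second was well above background on 0 of 24 arrays. Camp had 2 overlapping probes that were bright on all arrays, and the second gave a young response of -0.07, an old response of 1.01 and an age difference of -0.40 before irradiation, beside -0.17, 1.05 and -0.33 for the first.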
